A study of Homo sapiens with 12 samples.

Results

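The extracellular matrix and its cell-surface readers were followed here through 90 genes of SHEP cells: collagen chains, laminin chains, integrin subunits, the ADAMTS and MMP proteases, fibrillins, fibulins, lysyl oxidases, and the single genes FN1, SPARC, TNC, HAS2 and CD44. They were taken by gene symbol, and 130 listed genes carried such a name. The 90 that reached at least 0.5 CPM (reads scaled to a total of 1000000 per library) in at least 3 of the 12 libraries are described, out of 18674 genes that reached this level and 28576 that were listed. The other 40 stayed under it.

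SHEP is a human neuroblastoma line that grows attached and has a mesenchymal character. All libraries came from cells that carry MYCN-ER, a fusion of the transcription factor MYCN to an oestrogen receptor domain that 4-hydroxytamoxifen (OHT) switches on, and an inducible short hairpin RNA against TCEAL1, which doxycycline (Dox) switches on. Poly(A) RNA was sequenced from 4 groups of 3 libraries: OHT_Dox with both agents, Dox with 1 µg/ml doxycycline, OHT with 200 nM 4-hydroxytamoxifen, and Ctrl with neither. Cells given Dox without the hairpin, or OHT without MYCN-ER, are not analysed here, so an effect of either agent itself and of the construct it drives cannot be told apart. The labels number the libraries of a group and do not say whether they came from separate cultures, so a p-value here reflects only how these libraries varied, which may be technical.

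Collagens are secreted as triple helices of chains and assembled into fibrils, networks or beaded filaments outside the cell, where lysyl oxidases cross-link them. Laminins and type IV collagen form the basement membrane, and integrins, each a pair of an alpha and a beta subunit, bind matrix proteins and tie them to the cytoskeleton. MMP and ADAMTS proteases cut and remodel the network. In neuroblastoma lines, abundant matrix expression goes with the mesenchymal state and low matrix expression with the adrenergic, sympathetic-neuron-like state.

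Depth ran from 44466458 to 57694970 reads per library. TCEAL1, the target of the hairpin, had 2.58, 2.50 and 1.73 CPM with both agents (OHT_Dox) and 2.62, 2.54 and 2.74 CPM with Dox, against 8.23, 9.75 and 8.99 CPM in OHT and 9.71, 9.11 and 10.7 CPM in Ctrl. Every library with Dox was below every library without it. All 10 mesenchymal neuroblastoma markers looked at were expressed, with a summed level of 3001 to 3793 CPM over the libraries, most of it VIM. Adrenergic markers summed to 86.1 to 109 CPM, of which HAND2, TBX2, GATA3 and ISL1 made up nearly all, while PHOX2A, DBH and CHGA stayed under 0.59 CPM in each library and TH was not listed. Epithelial markers summed to at most 3.64 CPM and endothelial markers to at most 0.691 CPM. The haematopoietic list reached 20.4 to 26.7 CPM, nearly all of it CD68, with PTPRC at or under 0.413 CPM.

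Among the genes on which the results below turn are COL6A3, COL5A1, COL1A1, SPARC and FN1, which were lower with Dox whether or not OHT was present. For FN1 the fall without OHT was less firm, as given below. COL7A1, HAS2 and LOXL2 were lower in both cases as well, and their windows are not printed. The pair COL4A5 and COL4A6 lie head to head and were both higher in Dox than in Ctrl. Promoter sequences of the first group and of this pair are shown because the genes of each moved together. Each is the 250 bases before the RefSeq start (build GRCh38.p14), written 5′ to 3′ on the strand of the gene, in lower case. Capitals mark matches to 4 words searched on both strands: CACGTG, the E-box that MYC and MYCN proteins can bind; CAGGTG, the E-box of SNAIL-type repressors; CCAAT, the box bound by NF-Y; and TGANTCA, the AP-1 site. The window of COL6A3 is chr2:237414165-237414414, minus strand. Those of COL5A1 and SPARC are chr9:134641553-134641802, plus strand, and chr5:151686916-151687165, minus strand. Those of FN1 and COL4A6 are chr2:215436069-215436318, minus strand, and chrX:108439459-108439708, minus strand. COL1A1 had no entry in the table of promoters and is named only.
COL6A3: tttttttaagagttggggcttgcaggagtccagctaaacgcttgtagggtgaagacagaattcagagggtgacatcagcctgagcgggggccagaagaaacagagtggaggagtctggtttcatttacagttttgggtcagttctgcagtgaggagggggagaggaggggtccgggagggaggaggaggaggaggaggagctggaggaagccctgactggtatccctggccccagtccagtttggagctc
COL5A1: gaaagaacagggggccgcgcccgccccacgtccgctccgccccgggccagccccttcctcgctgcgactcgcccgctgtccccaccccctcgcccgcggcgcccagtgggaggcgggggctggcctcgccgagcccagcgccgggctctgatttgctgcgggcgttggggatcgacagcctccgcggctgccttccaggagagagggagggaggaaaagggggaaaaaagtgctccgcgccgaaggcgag
SPARC: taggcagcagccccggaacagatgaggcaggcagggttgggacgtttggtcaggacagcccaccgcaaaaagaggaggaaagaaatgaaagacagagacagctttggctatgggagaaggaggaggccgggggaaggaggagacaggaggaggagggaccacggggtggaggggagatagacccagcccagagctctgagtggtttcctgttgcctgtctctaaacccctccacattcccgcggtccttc
FN1: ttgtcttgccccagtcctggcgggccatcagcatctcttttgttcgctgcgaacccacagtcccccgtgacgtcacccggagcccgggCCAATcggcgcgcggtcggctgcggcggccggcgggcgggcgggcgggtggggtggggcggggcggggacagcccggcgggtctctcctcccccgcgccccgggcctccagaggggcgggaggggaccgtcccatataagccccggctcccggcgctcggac
COL4A6: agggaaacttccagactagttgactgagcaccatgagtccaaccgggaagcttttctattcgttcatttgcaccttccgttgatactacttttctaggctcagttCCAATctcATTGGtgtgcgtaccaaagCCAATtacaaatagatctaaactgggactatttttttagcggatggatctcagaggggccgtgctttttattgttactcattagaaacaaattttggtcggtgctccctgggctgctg
The windows of COL6A3, COL5A1 and SPARC held none of the 4 words, and that of FN1 held 1 CCAAT, between 162 and 158 bases before the start. The COL4A6 window held 3 CCAAT boxes in either orientation, 2 of which also lie in the window of COL4A5 on the other strand. Over all 35116 promoter windows of the table, 6.34% held CACGTG, 17.5% CAGGTG, 32% CCAAT and 6.57% TGANTCA. Over the 83 windows of the 63 matrix genes in the table, the shares were 4.82%, 16.9%, 22.9% and 4.82%. A match is a description of the letters and not a binding site, and a missing match says only that these letters are not in this window.

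The 90 genes covered a range of levels that ran up to 1673 CPM for SPARC, as means over the 12 libraries. Of them, 22 averaged at least 100 CPM and 47 at least 10 CPM. In all, 80 reached 0.5 CPM in every library, and none passed the threshold through the libraries of 1 group only. Just inside the threshold were COL10A1, ITGB6 and COL15A1, whose third-highest library stood at 0.585, 0.598 and 0.635 CPM, and just outside were ITGA11, LAMC3 and COL5A3, at 0.486, 0.455 and 0.426 CPM.

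Per kilobase of exon, SPARC was the highest with a mean of 346 CPM per kilobase. The length is that of all annotated exons of a gene merged. It can exceed the transcript expressed, so genes are set side by side only roughly. SPARC encodes a secreted collagen-binding glycoprotein that takes part in fibril assembly. ITGB1, the beta subunit shared by most collagen, laminin and fibronectin receptors, followed at 86.8 CPM per kilobase. The fibrillar chains COL1A1, COL5A2 and COL3A1 came next, at 71.5, 58.5 and 50.1 CPM per kilobase. The cross-linking enzyme LOXL2 (43.6), the laminin chains LAMC1 (43.0) and LAMB1 (39.2) and the laminin receptor subunit ITGA3 (42.2) lay close behind. SPARC alone made up 19.4% of the summed CPM of the 90 genes, and COL1A1, FN1 and ITGB1 made up 8.15%, 6.70% and 6.06%.

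**Figure D1:**
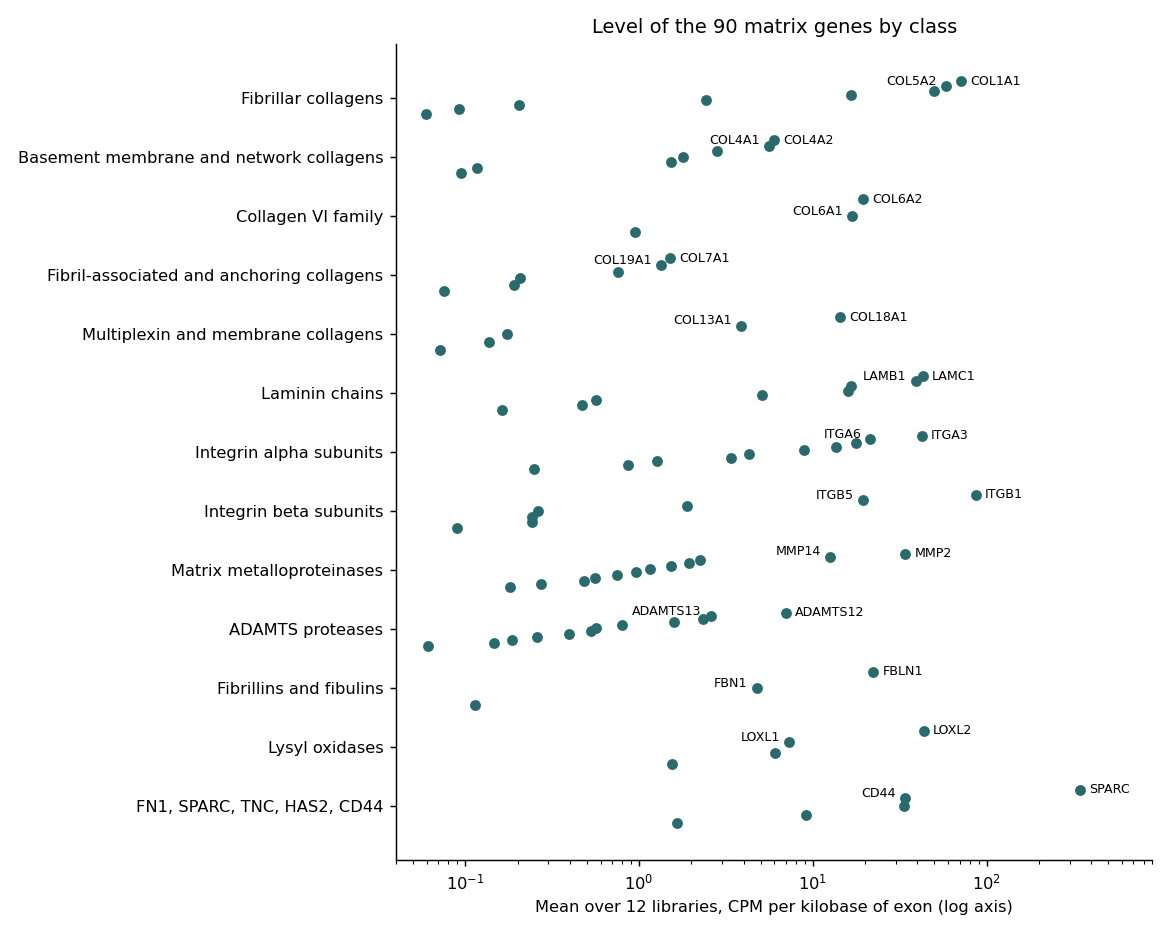
Mean level of each of the 90 matrix genes over the 12 libraries, in CPM per kilobase of exon on a log axis, with 1 row per class and the 2 highest genes of each class named. SPARC stands apart at 346 CPM per kilobase, ahead of ITGB1 at 86.8.

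The partner chains of a collagen were not always present together. Type I collagen is usually built from COL1A1 and COL1A2 chains, yet COL1A2 stood between 0.240 and 1.06 CPM in the 12 libraries while COL1A1 stood between 450 and 969 CPM. Per kilobase, COL1A1 exceeded COL1A2 1091-fold ± 428 in OHT_Dox, 1692-fold ± 1009 in Dox, 1321-fold ± 182 in OHT and 1213-fold ± 253 in Ctrl (mean ± SD, n = 3 each). COL1A2 was thus the chain near the threshold in every group, and the ratio varied between libraries of 1 group. For COL4A1 over COL4A2, partner chains of type IV collagen, the ratio per kilobase was 0.943 ± 0.042 in OHT_Dox and 0.909 ± 0.017 in Dox. It was 0.934 ± 0.047 in OHT and 0.966 ± 0.029 in Ctrl. These ratios rest on merged exon lengths of 14738 and 19293 bases. As CPM, the means over the 12 libraries were 82.3 and 114.8, so how even these chains were depends on the length used.

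Of the laminins, LAMC1, LAMB1, LAMB2, LAMB3 and LAMA5 were the chains at more than 55 CPM in every library, and LAMB3 stood far above LAMA3, a usual partner, which lay between 1.79 and 3.06 CPM, against 55.6 to 100.4 CPM for LAMB3. Among integrins, ITGB1 and ITGB5 were the beta subunits at more than 10 CPM, beside the alpha subunits ITGA3, ITGA6, ITGAV, ITGA5, ITGA4, ITGA1 and ITGA2. MMP2 and MMP14, a gelatinase and the membrane protease that activates it, were the highest MMPs per kilobase, and ADAMTS12 was the highest ADAMTS gene. ITGB3 shares 51.6% of its exon bases with an overlapping gene on the same strand, AC068234.1, and its level is therefore uncertain.

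The summed level of the 90 genes was 7581 ± 68.5 CPM in OHT_Dox, 8274 ± 81.1 CPM in Dox, 9151 ± 299.9 CPM in OHT and 9464 ± 478 CPM in Ctrl (SD, n = 3 each). The libraries with Dox lay between 7534 and 8329 CPM and those without between 8805 and 9941 CPM, with no overlap. In cultured cells measured in bulk, fewer cells of a kind and less RNA per cell cannot be told apart. The fibrillar collagens gave 1344 ± 36.9 CPM in OHT_Dox and 1545 ± 35.3 CPM in Dox, against 1883 ± 111 CPM in OHT and 2036 ± 144 CPM in Ctrl. The laminin chains ran differently, at 981 ± 24.6 CPM in OHT_Dox, 984 ± 14.1 CPM in Dox, 952 ± 56.2 CPM in OHT and 892 ± 42.2 CPM in Ctrl. These sums follow their most abundant genes and were not tested.

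The first question was what TCEAL1 knockdown with Dox did to the matrix genes, asked without OHT (Dox against Ctrl) and with it (OHT_Dox against OHT). These comparisons share no library, but 1 fit to all 12 libraries gave both the same estimate of the spread. A gene was called at an adjusted p below 0.05 in limma (Benjamini-Hochberg over all 18674 genes), and changes are differences of log2(CPM + 0.5) ± SE, which understate those of genes at a few CPM. In Dox against Ctrl, 6 matrix genes were higher and 16 lower, where 8.29% of all genes tested were called, 5.68% higher and 2.61% lower. For the 90 genes that is 6.67% and 17.8%. In OHT_Dox against OHT, 1 was higher and 14 lower, 1.11% and 15.6%, where 2.1% of all genes were called, 0.509% higher and 1.59% lower. The median change of the matrix genes was -0.06 in Dox against Ctrl and -0.11 in OHT_Dox against OHT, beside 0.05 and 0.02 over all genes tested. The direction of calls over all genes depends on the scaling: TMM rescaling called 519 genes higher and 771 lower in Dox against Ctrl, against 1061 higher and 487 lower as deposited, while the matrix genes gave 4 higher and 18 lower.

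Counted by library, 25 matrix genes (27.8%) had every Dox library below every Ctrl library, beside 9.77% of all genes tested, and 15 (16.7%) had every Dox library above, beside 19.1%. In OHT_Dox against OHT, 30 (33.3%) lay wholly below, beside 8.33% of all genes, and 12 (13.3%) wholly above, beside 10.4%. The genes called lower in both comparisons were COL1A1, COL5A1, COL6A3, COL7A1, FN1, HAS2, LOXL2 and SPARC, which are 8 of 16 (50%) and 8 of 14 (57.1%). COL8A1 was called higher in both, which is 1 of 6 (16.7%) and 1 of 1 (100%). The overlap of calls over all genes was not counted, so these shares have no background beside them.

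COL6A3 had the largest fall in both. It encodes the long chain of collagen VI, the beaded-filament collagen that sits around cells. COL6A3 had 11.6, 11.4 and 9.81 CPM in OHT_Dox and 11.8, 12.2 and 10.1 CPM in Dox, against 29.1, 21.3 and 24.1 CPM in OHT and 29.6, 25.7 and 25.3 CPM in Ctrl. Every library with Dox was well below every library without it. The change was -1.21 ± 0.11 in Dox against Ctrl (adjusted p = 1.51e-06) and -1.14 ± 0.11 in OHT_Dox against OHT (adjusted p = 2.68e-06). The other chains of collagen VI tested had smaller changes. COL6A1 and COL6A2 were called lower in Dox against Ctrl, at -0.24 ± 0.06 and -0.21 ± 0.06 (adjusted p = 0.0222 and 0.032), and not in OHT_Dox against OHT, at -0.20 ± 0.06 and -0.10 ± 0.06. Of 12 refits that each left out 1 library, the call of COL6A1 held in 7 and that of COL6A2 in 8. That of COL6A2 was also lost with the trend in exon length and GC content removed. A refit without a library of a group not compared could move a call only through the estimate of the spread. Per kilobase, COL6A1 exceeded COL6A3 28.3-fold ± 4.05 in OHT_Dox and 26.9-fold ± 3.22 in Dox. Without Dox it did so 14.4-fold ± 2.44 in OHT and 13.4-fold ± 1.48 in Ctrl (SD, n = 3 each). The chain ratio with Dox thus did not overlap that without. Its size depends on the merged exon lengths, which are the same for every group.

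The fibrillar collagens followed. COL1A1, the main chain of type I collagen, had 510, 450 and 535 CPM in OHT_Dox and 544, 545 and 602 CPM in Dox, against 830, 751 and 887 CPM in OHT and 969, 863 and 941 CPM in Ctrl. Its highest library with Dox lay below its lowest without. The change was -0.71 ± 0.07 in Dox against Ctrl (adjusted p = 5.53e-06) and -0.72 ± 0.07 in OHT_Dox against OHT (adjusted p = 3.68e-06). COL5A1, a chain of type V collagen, which starts type I fibrils, had 132, 129 and 138 CPM in OHT_Dox and 148, 157 and 154 CPM in Dox, against 220, 197 and 244 CPM in OHT and 262, 219 and 230 CPM in Ctrl. It too was separated without overlap, by -0.62 ± 0.07 in Dox against Ctrl (adjusted p = 3.44e-05) and -0.72 ± 0.07 in OHT_Dox against OHT (adjusted p = 5.03e-06). Its partner chain COL5A2 and the type III chain COL3A1 were called in OHT_Dox against OHT alone, at -0.26 ± 0.06 and -0.25 ± 0.06 (adjusted p = 0.0168 and 0.041), with changes of -0.08 ± 0.06 and -0.07 ± 0.06 in Dox against Ctrl. The call of COL5A2 held in 8 and that of COL3A1 in 4 of 12 refits that left out 1 library. That of COL3A1 was lost without any 1 library of OHT_Dox or OHT. In all, 2 of 8 fibrillar chains (25%) were lower in Dox against Ctrl and 4 of 8 (50%) in OHT_Dox against OHT, beside 2.61% and 1.59% of all genes. No fibrillar chain was called higher in either, COL1A2, COL11A2, COL24A1 and COL27A1 being called in neither. Of all 29 collagen chains tested, 3 were higher and 8 lower in Dox against Ctrl, 37.9% beside 8.29% of all genes. In OHT_Dox against OHT, 1 was higher and 6 lower, 24.1% beside 2.1%.

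**Figure D2:**
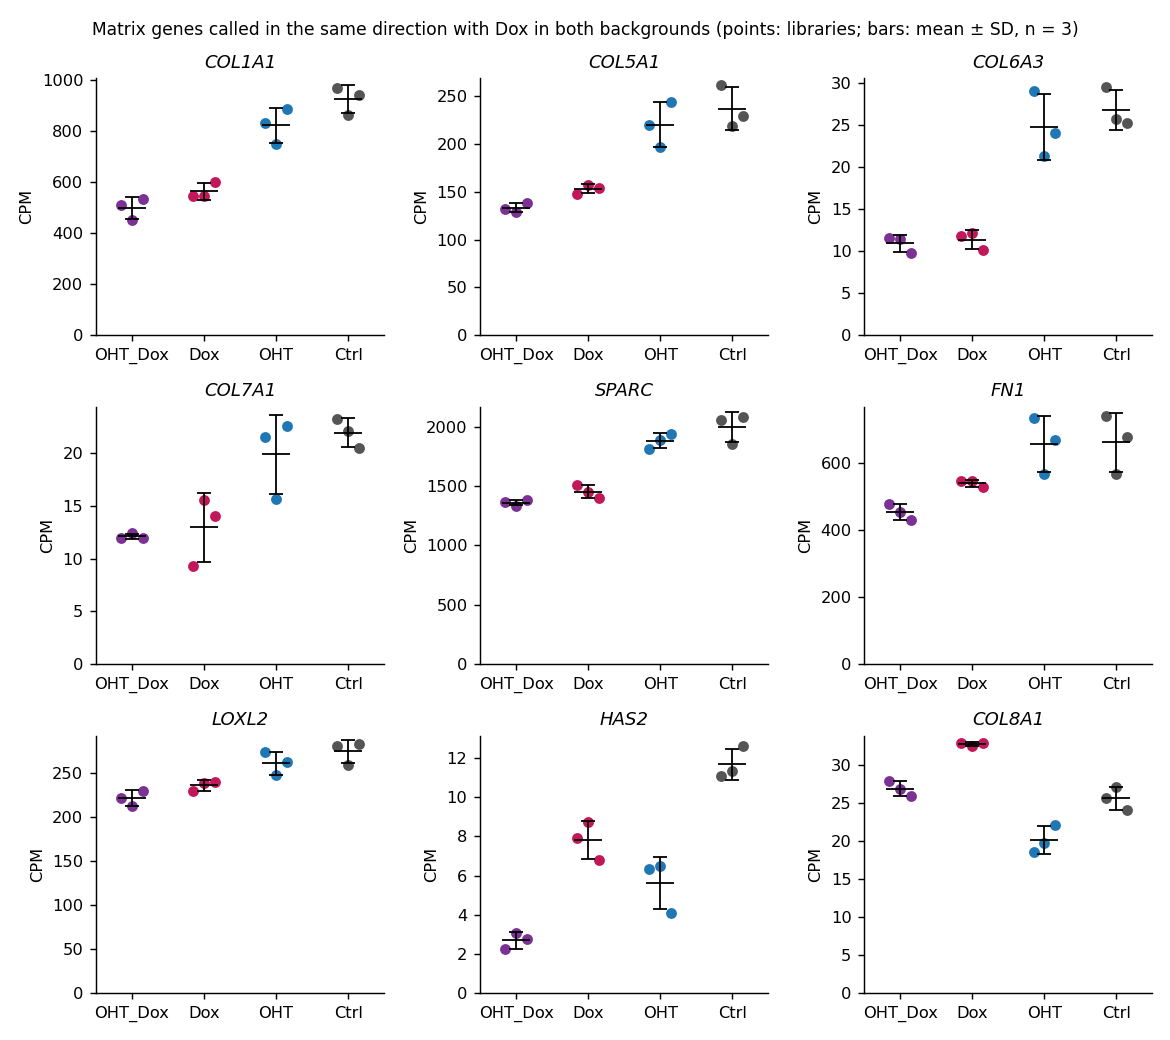
CPM of the 8 matrix genes called lower with Dox in both comparisons and of COL8A1, called higher in both, with 1 panel per gene on a linear axis from 0. Points are the 3 libraries of OHT_Dox, Dox, OHT and Ctrl from left to right, and bars give the mean ± SD. For COL1A1, COL5A1, COL6A3 and SPARC the libraries with Dox lie below all those without, while HAS2 also differs by OHT.

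SPARC, the most abundant of the genes, had 1362, 1335 and 1383 CPM in OHT_Dox and 1506, 1452 and 1399 CPM in Dox, against 1816, 1889 and 1943 CPM in OHT and 2059, 1855 and 2082 CPM in Ctrl. The libraries with and without Dox did not overlap. The change was -0.46 ± 0.05 (adjusted p = 4.54e-05) in Dox against Ctrl and -0.47 ± 0.05 (adjusted p = 3.23e-05) in OHT_Dox against OHT. COL7A1, the collagen of the anchoring fibrils that fix basement membranes to the tissue beneath, had 11.90, 12.39 and 11.99 CPM in OHT_Dox and 9.32, 15.56 and 14.03 CPM in Dox, against 21.5, 15.6 and 22.5 CPM in OHT and 23.26, 22.13 and 20.45 CPM in Ctrl. Dox and Ctrl did not overlap, nor did OHT_Dox and OHT, although OHT replicate 2 was near the Dox level. It changed by -0.77 ± 0.15 in Dox against Ctrl (adjusted p = 0.0059) and -0.68 ± 0.15 in OHT_Dox against OHT (adjusted p = 0.0146), and the second call was lost without OHT_Dox replicate 1 or 3 or OHT replicate 1 or 3, with changes of -0.84 to -0.58 over the refits. LOXL2, which cross-links collagen, was lower by little, at -0.22 ± 0.05 in Dox against Ctrl (adjusted p = 0.0226) and -0.24 ± 0.05 in OHT_Dox against OHT (adjusted p = 0.0225). Each of its calls held in 8 of 12 refits, and every refit that lost the call left out a library of the groups compared. The other lysyl oxidases LOX, LOXL1 and LOXL3 were called in neither comparison.

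FN1 encodes fibronectin, the fibril glycoprotein on which collagen is laid down and which integrin alpha-5 beta-1 binds. FN1 had 478, 453 and 429 CPM in OHT_Dox and 546, 545 and 527 CPM in Dox, against 734, 566 and 667 CPM in OHT and 741, 566 and 676 CPM in Ctrl. Replicate 2 was the lowest library of both OHT and Ctrl and lay close to the Dox libraries. The change was -0.52 ± 0.09 (adjusted p = 0.00156) in OHT_Dox against OHT, and this call held in all 12 refits. In Dox against Ctrl it was -0.28 ± 0.09 (adjusted p = 0.0487), and the call held in 4 of 12 refits, with changes from -0.39 to -0.20. That call was lost without any 1 Dox library. HAS2 makes hyaluronan, the large sugar polymer of the pericellular coat, and CD44 is its receptor. HAS2 had 2.22, 3.07 and 2.77 CPM in OHT_Dox and 7.89, 8.73 and 6.78 CPM in Dox, against 6.31, 6.47 and 4.11 CPM in OHT and 11.1, 11.3 and 12.6 CPM in Ctrl. OHT_Dox was the lowest group and Ctrl the highest. With Dox it changed by -0.56 ± 0.15 without OHT (adjusted p = 0.0306, held in 7 of 12 refits and lost without any 1 Dox library) and by -0.93 ± 0.15 with OHT (adjusted p = 0.00125, held in all 12). The antisense gene HAS2-AS1 overlaps 4.8% of its exon bases. CD44 was called in Dox against Ctrl alone, at -0.21 ± 0.05 (adjusted p = 0.0144), a call lost without Dox replicate 3 or Ctrl replicate 3. TNC, the tenascin gene, was called in neither.

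Several basement membrane and network collagens were higher in Dox than in Ctrl, and COL8A1 was also higher in OHT_Dox than in OHT. COL8A1, a network collagen of short chains, had 27.9, 26.8 and 25.9 CPM in OHT_Dox against 18.5, 19.7 and 22.1 CPM in OHT, and 32.9, 32.4 and 32.9 CPM in Dox against 25.6, 27.0 and 24.0 CPM in Ctrl. In each pair all libraries with Dox were the higher. The change was 0.41 ± 0.08 in OHT_Dox against OHT (adjusted p = 0.00389) and 0.35 ± 0.08 in Dox against Ctrl (adjusted p = 0.0121). The first call held in all 12 refits and the second in 10. COL4A6 and COL4A5, which encode type IV chains and share the promoter region printed above, had 17.5, 17.7 and 17.1 CPM and 23.6, 26.0 and 23.2 CPM in Dox, against 13.0, 12.9 and 13.6 CPM and 21.2, 19.1 and 17.2 CPM in Ctrl. Both were higher in every Dox library. They changed by 0.40 ± 0.09 and 0.34 ± 0.08 (adjusted p = 0.0121 and 0.0194), and by 0.17 ± 0.09 and 0.10 ± 0.08 in OHT_Dox against OHT, where neither was called. In Dox against Ctrl the call of COL4A6 held in 11 and that of COL4A5 in 9 of 12 refits. Without Dox replicate 2, 0 matrix genes were called higher in Dox against Ctrl. Over all genes 85 were then called higher, beside 1061 with all libraries. COL4A1 was lower in Dox than in Ctrl at -0.22 ± 0.07 (adjusted p = 0.0423), a call that held in 5 of 12 refits and was lost without any 1 library of Dox or Ctrl. Its partner COL4A2 was not called. In Dox against Ctrl, 3 of the 7 genes of this class were higher and 1 lower (42.9% and 14.3%, beside 5.68% and 2.61% of all genes). In OHT_Dox against OHT 1 was higher and none lower (14.3% and 0%, beside 0.509% and 1.59%).

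Laminins and integrins gave calls in both directions. LAMC1, the gamma chain of most laminins, was higher in Dox, with 397, 386 and 358 CPM, than in Ctrl, with 344, 285 and 285 CPM, by 0.32 ± 0.07 (adjusted p = 0.0155), while LAMB3, a chain of the epithelial laminin, was lower by -0.29 ± 0.07 (adjusted p = 0.0198). Of the 10 alpha subunits, ITGA5, the fibronectin receptor subunit, and ITGA6, a laminin receptor subunit, were higher in Dox than in Ctrl, at 0.22 ± 0.06 and 0.24 ± 0.07 (adjusted p = 0.0311 and 0.0379). Both calls were lost under TMM rescaling. ITGA3 was lower at -0.19 ± 0.05 (adjusted p = 0.0251). Of 12 refits, the call of LAMC1 held in 9, LAMB3 in 7, ITGA5 in 8, ITGA6 in 6 and ITGA3 in 8. In OHT_Dox against OHT the integrins called were others, all of them lower: the collagen receptor subunit ITGA2 at -0.48 ± 0.09 (adjusted p = 0.00312), ITGA4 at -0.36 ± 0.09 (adjusted p = 0.0301) and ITGB8, a subunit of a receptor that releases active TGF-beta, at -0.73 ± 0.16 (adjusted p = 0.0146). ITGA2 had 24.1, 22.4 and 19.8 CPM in OHT_Dox against 33.1, 29.9 and 29.9 CPM in OHT. ITGB8 had 2.32, 3.45 and 2.52 CPM in OHT_Dox against 5.02, 4.69 and 4.85 CPM in OHT. Neither pair of groups overlapped. The call of ITGA2 held in all 12 refits, that of ITGA4 in 7 and that of ITGB8 in 8. That a gene was called in 1 background and not in the other does not show that the backgrounds differ, and the test of that difference is the interaction.

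Of the 12 ADAMTS genes, 0 were called in either comparison, and of the 12 MMPs 1 was called in each (8.33%), beside 8.29% of all genes in Dox against Ctrl and 2.1% in OHT_Dox against OHT. MMP9 was lower in Dox, with 2.35, 2.41 and 2.20 CPM, than in Ctrl, with 3.73, 4.33 and 3.67 CPM (-0.64 ± 0.17, adjusted p = 0.0313, held in 7 of 12 refits and lost without any 1 Dox library), and SLC12A5-AS1 on the other strand overlaps 18.4% of its exon bases. MMP2 was lower in OHT_Dox, with 151, 146 and 158 CPM, than in OHT, with 189, 193 and 176 CPM (-0.29 ± 0.07, adjusted p = 0.0309, held in 8 of 12 refits). No fibrillin or fibulin was called. COL18A1, the source of endostatin, was lower in Dox than in Ctrl at -0.26 ± 0.06 (adjusted p = 0.0213, held in 8 of 12 refits), and 16.4% of its exon bases overlap SLC19A1 on the other strand.

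**Figure D3:**
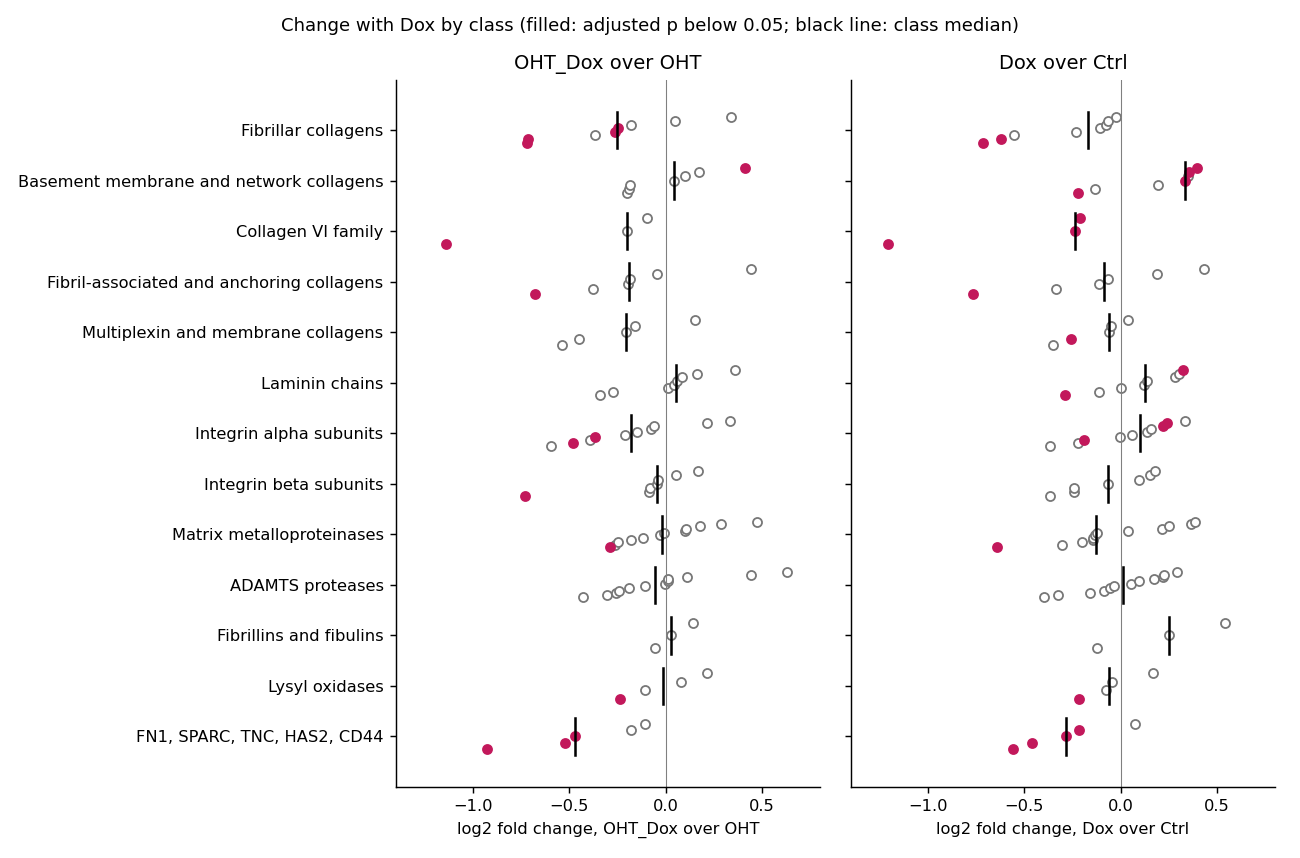
log2 fold change of each matrix gene in OHT_Dox over OHT (left) and Dox over Ctrl (right) by class. Filled points are genes called at an adjusted p below 0.05, open points were not called, and black lines give class medians, from -0.47 for FN1, SPARC, TNC, HAS2 and CD44 in OHT_Dox over OHT to 0.34 for the basement membrane and network collagens in Dox over Ctrl.

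Not all of these calls were firm. In Dox against Ctrl, COL1A1, COL5A1, COL6A3, COL7A1 and SPARC were called in all 12 refits that left out 1 library and under all other settings tried, which is 5 of 22. The number of matrix genes called was 6 without Dox replicate 2, 7 without Ctrl replicate 3, 10 without Dox replicate 1 or 3, 12 without Ctrl replicate 2 and 25 without Ctrl replicate 1. The count over all genes moved in the same refits, and was 197 without Dox replicate 2, 231 without Ctrl replicate 3, 861 and 609 without Dox replicate 1 and without Dox replicate 3, 351 without Ctrl replicate 2 and 3180 without Ctrl replicate 1, beside 1548 with all libraries. In OHT_Dox against OHT, COL1A1, COL5A1, COL6A3, COL8A1, FN1, HAS2, ITGA2 and SPARC were so called, 8 of 15, and the number was 8 without OHT_Dox replicate 1 or OHT replicate 1 and 9 without OHT replicate 3. Over all genes it was 204 without OHT_Dox replicate 1, 196 without OHT replicate 1 and 288 without OHT replicate 3, beside 392 with all libraries. No call changed its sign.

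**Figure D4:**
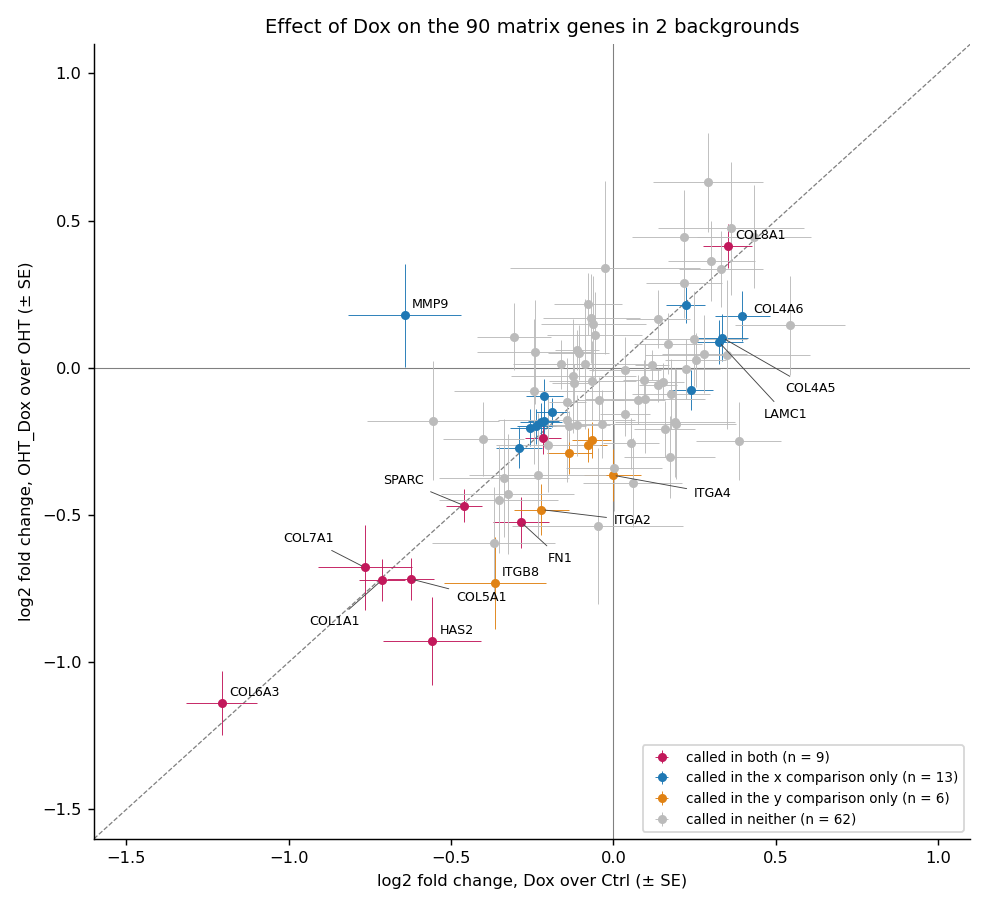
log2 fold change of the 90 matrix genes in Dox over Ctrl (x axis) and in OHT_Dox over OHT (y axis), with SE as bars and a dashed line of equal change. Colours show in which comparison a gene was called: 9 in both, 13 in Dox over Ctrl alone, 6 in OHT_Dox over OHT alone and 62 in neither. COL6A3 lies farthest out, at -1.21 and -1.14.

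Markers of cell state went in both directions with Dox. SNAI2, a mesenchymal transcription factor, had 3.03, 3.52 and 2.97 CPM in OHT_Dox and 3.29, 4.27 and 3.28 CPM in Dox, against 6.51, 7.56 and 7.98 CPM in OHT and 8.91, 10.1 and 9.26 CPM in Ctrl. The 10 mesenchymal markers summed to 3042 to 3291 CPM in OHT_Dox and 3001 to 3202 CPM in Dox, against 3443 to 3610 CPM in OHT and 3485 to 3793 CPM in Ctrl, most of it VIM. Of the 10, 1 (YAP1) was called higher and 2 (SNAI2 and VIM) lower in Dox against Ctrl (10% and 20%). In OHT_Dox against OHT, 0 were higher and 1 (SNAI2) lower (0% and 10%). All genes gave 5.68% and 2.61%, and 0.509% and 1.59%, in these comparisons. The log2 difference was positive for 6 of the 10 in Dox against Ctrl, with a median of 0.05 beside 0.05 over all genes, and for 4 of the 10 in OHT_Dox against OHT, with a median of -0.06 beside 0.02. YAP1, a transcriptional coactivator, had 109, 112 and 103 CPM in Dox, against 100.7, 85.8 and 84.5 CPM in Ctrl (0.26 ± 0.07, adjusted p = 0.0314), and NOTCH2, a Notch receptor, stood at 0.31 ± 0.10 (adjusted p = 0.0561). The 9 adrenergic markers that were listed summed to 101.4 to 108.9 CPM in OHT_Dox and 86.1 to 94.0 CPM in Dox, against 94.1 to 103 CPM in OHT and 87.1 to 90.8 CPM in Ctrl. Of the 4 adrenergic markers tested, 1 (25%) was called higher and 0 lower in Dox against Ctrl. In OHT_Dox against OHT, 0 were called in either direction. The matrix genes had a median GC content of 53.6%, beside 48.2% over all genes tested, and the correlation of a library's deviations with GC content ran from -0.50 (OHT_Dox replicate 2) to 0.53 (OHT_Dox replicate 3). With the trend in exon length and GC content removed from each library, 5 matrix genes were called higher and 17 lower in Dox against Ctrl, and 3 higher and 19 lower in OHT_Dox against OHT. Over all genes, 924 were then called higher and 518 lower in Dox against Ctrl, and 205 higher and 456 lower in OHT_Dox against OHT. The part of the cell-state markers in the results was not tested.

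The second question was what activation of MYCN-ER by OHT did to the matrix genes, without the knockdown (OHT against Ctrl) and with it (OHT_Dox against Dox). In OHT against Ctrl, 7 matrix genes were called higher and 10 lower, 7.78% and 11.1%, where 21.4% of all genes tested were called, 12.6% higher and 8.79% lower. In OHT_Dox against Dox, 3 were higher and 16 lower, 3.33% and 17.8%, where 26% of all genes were called, 11.5% higher and 14.5% lower. The median change of the matrix genes was -0.02 and -0.09, beside -0.01 and -0.03 over all genes tested. TMM rescaling gave 4 matrix genes higher and 11 lower in OHT_Dox against Dox, and 2553 higher and 2220 lower over all genes, against 2153 and 2709 as deposited. The genes called lower in both were ADAMTS6, ADAMTS15, COL8A1, HAS2, ITGA3, ITGA5, LAMB3 and MMP14, which are 8 of 10 (80%) and 8 of 16 (50%), and MMP15 was higher in both. The overlap over all genes was not counted here either. MYC, which an active MYCN is known to repress, stood at 6.87, 5.80 and 7.11 CPM in OHT_Dox against 24.17, 21.19 and 20.47 CPM in Dox, and at 9.74, 11.3 and 11.9 CPM in OHT against 30.1, 29.9 and 29.9 CPM in Ctrl. Of the 10 mesenchymal markers, 3 were higher and 2 lower in OHT against Ctrl, and 1 higher and 4 lower in OHT_Dox against Dox. Of the 4 adrenergic markers tested, 1 was higher and 0 lower in OHT against Ctrl, and 2 higher and 1 lower in OHT_Dox against Dox. The part of these markers in the results was not tested.

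HAS2 had the largest change of any matrix gene with OHT. From the values given above, it changed by -1.01 ± 0.15 in OHT against Ctrl (adjusted p = 5.88e-05) and by -1.38 ± 0.15 in OHT_Dox against Dox (adjusted p = 1.47e-06), with every library with OHT below every library of its counterpart. Both calls held in all 12 refits. ADAMTS6 and ADAMTS15, secreted proteases of the ADAMTS family, were lower as well. ADAMTS6 had 16.3, 15.1 and 11.9 CPM in OHT_Dox against 25.02, 26.40 and 20.75 CPM in Dox libraries, and 18.3, 14.9 and 16.1 CPM in OHT against 24.5, 26.7 and 22.5 CPM in Ctrl. Libraries with OHT lay below those without in each pair. It changed by -0.73 ± 0.11 in OHT_Dox against Dox (adjusted p = 9.97e-05) and -0.57 ± 0.11 in OHT against Ctrl (adjusted p = 0.00122). ADAMTS15, which cleaves proteoglycans, changed by -0.41 ± 0.13 in OHT_Dox against Dox (adjusted p = 0.0214, held in 8 of 12 refits) and -0.57 ± 0.13 in OHT against Ctrl (adjusted p = 0.00281).

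Among the receptors, ITGA5 had 98.1, 100.3 and 100.8 CPM in OHT_Dox against 125, 117 and 122 CPM in Dox libraries, and 84.0, 84.0 and 90 CPM in OHT against 103, 96.1 and 113 CPM in Ctrl. Each OHT library was below the libraries it is set against. The change was -0.28 ± 0.06 in OHT_Dox against Dox (adjusted p = 0.00156) and -0.27 ± 0.06 in OHT against Ctrl (adjusted p = 0.00247), and the further pairs of changes below are in this order. ITGA3, a laminin receptor subunit, was lower by -0.17 ± 0.05 (adjusted p = 0.012) and -0.21 ± 0.05 (adjusted p = 0.00366), and the first of these was lost under TMM rescaling. LAMB3 had 57.9, 55.6 and 65.3 CPM in OHT_Dox against 72.0, 79.2 and 73.6 CPM in Dox libraries, and 71.4, 71.9 and 72.4 CPM in OHT against 83.8, 100.4 and 91.8 CPM in Ctrl, changes of -0.33 ± 0.07 (adjusted p = 0.00171) and -0.35 ± 0.07 (adjusted p = 0.00124). COL8A1, higher with Dox, was lower with OHT, by -0.28 ± 0.08 (adjusted p = 0.00919) and -0.34 ± 0.08 (adjusted p = 0.0027). MMP14 was lower by -0.19 ± 0.06 and -0.21 ± 0.06 (adjusted p = 0.0185 and 0.00985), and MMP15, a membrane-bound relative of MMP14, was higher. MMP15 had 5.53, 5.08 and 5.53 CPM in OHT_Dox against 3.18, 2.93 and 2.72 CPM in Dox libraries, and 4.90, 4.80 and 5.19 CPM in OHT against 3.71, 3.55 and 4.02 CPM in Ctrl, changes of 0.77 ± 0.11 (adjusted p = 5e-05) and 0.36 ± 0.11 (adjusted p = 0.0292). The second of these held in 8 of 12 refits.

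**Figure D5:**
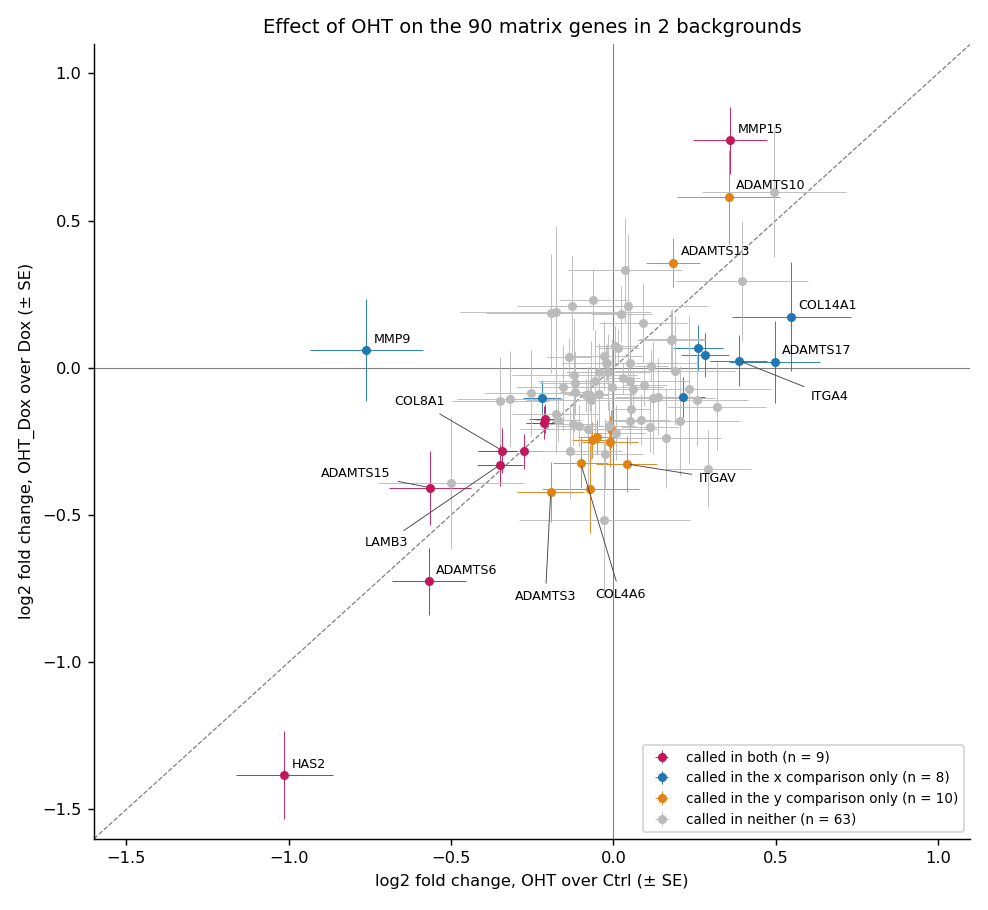
log2 fold change of the 90 matrix genes in OHT over Ctrl (x axis) and in OHT_Dox over Dox (y axis), with SE as bars and a dashed line of equal change. Colours show in which comparison a gene was called: 9 in both, 8 in OHT over Ctrl alone, 10 in OHT_Dox over Dox alone and 63 in neither. HAS2 lies farthest down, at -1.01 and -1.38.

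Of the 29 collagen chains, 4 (13.8%) were called in OHT against Ctrl, 2 higher and 2 lower, and 4 (13.8%) in OHT_Dox against Dox, all lower, beside 21.4% and 26% of all genes. COL8A1 was among the lower ones in both. None of the 8 fibrillar chains was called in OHT against Ctrl, and COL3A1 and COL5A2 were lower in OHT_Dox against Dox, at -0.25 ± 0.06 and -0.23 ± 0.06 (adjusted p = 0.00578 and 0.00473). COL1A1 stood at -0.17 ± 0.07 in OHT against Ctrl and -0.18 ± 0.07 in OHT_Dox against Dox, and was called in neither (adjusted p = 0.0992 and 0.0737). COL6A2 was lower in OHT against Ctrl (-0.22 ± 0.06, adjusted p = 0.00998), a call lost without Ctrl replicate 3, and COL4A6 was lower in OHT_Dox against Dox (-0.32 ± 0.09, adjusted p = 0.00815), a call lost without OHT_Dox replicate 1. Genes called higher in OHT against Ctrl were ADAMTS17 (0.50 ± 0.14), COL14A1 (0.55 ± 0.18), ITGA4 (0.39 ± 0.09), LAMC1 (0.28 ± 0.07), COL13A1 (0.26 ± 0.08) and ITGA6 (0.21 ± 0.07), besides MMP15. Of these 7, the call of ITGA4 alone held in all 12 refits. ADAMTS10 and ADAMTS13, the protease that trims von Willebrand factor, were higher in OHT_Dox against Dox, at 0.58 ± 0.16 and 0.36 ± 0.08 (adjusted p = 0.0103 and 0.00339). Further genes lower in OHT_Dox against Dox included ADAMTS3, FN1, ITGAV and ITGB1, between -0.42 and -0.21. The calls of FN1 and ITGB1, and that of MMP14 above, were lost under TMM rescaling. MMP9 was lower in OHT, with 1.52, 2.36 and 2.52 CPM, than in Ctrl, with 3.73, 4.33 and 3.67 CPM, by -0.76 ± 0.17 (adjusted p = 0.00359).

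The interaction asked whether the effect of either agent depended on the other. No matrix gene and no other gene was called, 0% of the 18674, and edgeR and DESeq2 on the reads called no matrix gene either, DESeq2 giving an adjusted p for 47 of the 90. At an unadjusted p below 0.05 there were 14 matrix genes, 2 with a positive and 12 with a negative interaction, and the smallest adjusted p was 0.221. These 14 were 15.6% of the 90, and 2879 of all genes tested, 15.4%, had an unadjusted p below 0.05, 956 positive and 1923 negative. The median interaction was -0.06 over the 90 genes and -0.04 over all genes. The lowest unadjusted p were those of MMP16 (-0.63 ± 0.19), MMP9 (0.82 ± 0.25) and ITGA6 (-0.31 ± 0.10), a negative value meaning that OHT_Dox lay below what the separate changes add up to. HAS2, the lowest in OHT_Dox, had an interaction of -0.37 ± 0.21 (adjusted p = 0.416), and COL1A1 one of -0.01 ± 0.10 (adjusted p = 0.979). Without Ctrl replicate 1, 7 matrix genes were called, all negative: ADAMTS12, COL3A1, ITGA4, ITGA6, ITGAV, LAMC1 and MMP16, between -0.82 and -0.27. That refit called 272 genes positive and 769 negative over all genes, so the 7 of 90 (7.78%) stood beside 5.57% of all genes.

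Other genes of the pathway were counted by lists of enzymes, inhibitors and adhesion proteins, and no list was tested as a set. Over all genes tested, 5.68% were higher and 2.61% lower in Dox against Ctrl, and 0.509% and 1.59% in OHT_Dox against OHT. For OHT these shares were 12.6% and 8.79% in OHT against Ctrl, and 11.5% and 14.5% in OHT_Dox against Dox. Among proteoglycans and other matrix glycoproteins, 1 of 35 was higher and 5 lower in Dox against Ctrl (2.86% and 14.3%), and 1 higher and 4 lower in OHT_Dox against OHT (2.86% and 11.4%). THBS1, the matricellular thrombospondin, was lower in these comparisons, in this order, by -1.01 ± 0.07 and -1.18 ± 0.07 (adjusted p = 6.57e-08 and 4.28e-09), and TGFBI, a secreted protein that links collagen to integrins, by -0.97 ± 0.08 and -0.82 ± 0.08 (adjusted p = 8.66e-07 and 5.08e-06). NID2, a basement membrane linker, was lower in both as well, in the same order by -0.27 ± 0.07 and -0.43 ± 0.07. With OHT, 2 of the 35 were higher and 3 lower in OHT against Ctrl (5.71% and 8.57%), and 2 higher and 6 lower in OHT_Dox against Dox (5.71% and 17.1%).

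Of 24 collagen-processing enzymes and chaperones, 3 were higher and 1 lower in Dox against Ctrl (12.5% and 4.17%, beside 5.68% and 2.61% of all genes). PLOD2, a collagen lysyl hydroxylase, stood there at 0.33 ± 0.07 and the procollagen-cleavage enhancer PCOLCE at -0.28 ± 0.08. None of the 24 was called in OHT_Dox against OHT, beside 2.1% of all genes. With OHT the collagen galactosyltransferase COLGALT2 was higher by 1.07 ± 0.09 in each comparison (adjusted p = 2.94e-08 in OHT against Ctrl and 3.25e-08 in OHT_Dox against Dox), and SERPINH1, the collagen chaperone HSP47, was lower by -0.34 ± 0.08 in OHT against Ctrl. In this list 3 were higher and 1 lower in OHT against Ctrl (12.5% and 4.17%, beside 12.6% and 8.79% of all genes). In OHT_Dox against Dox, 6 were higher and 1 lower (25% and 4.17%, beside 11.5% and 14.5%). Of 10 protease inhibitors and plasminogen-system genes, 0 were higher and 2 lower in Dox against Ctrl (0% and 20%), and 2 higher and 3 lower in OHT_Dox against OHT (20% and 30%). Further, 0 were higher and 4 lower in OHT against Ctrl (0% and 40%), and 0 higher and 3 lower in OHT_Dox against Dox (0% and 30%). PLAU, the urokinase protease, was lower in all 4, from -0.75 ± 0.07 in OHT_Dox against Dox to -0.41 ± 0.07 in Dox against Ctrl.

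Of 28 cytoplasmic proteins of integrin adhesions, 3 were higher and 0 lower in Dox against Ctrl (10.7% and 0%), and 0 higher and 2 lower in OHT_Dox against OHT (0% and 7.14%). Another 3 were higher and 7 lower in OHT against Ctrl (10.7% and 25%), and 2 higher and 8 lower in OHT_Dox against Dox (7.14% and 28.6%). All genes gave 5.68% and 2.61%, 0.509% and 1.59%, 12.6% and 8.79%, and 11.5% and 14.5% in these comparisons. FERMT1, an integrin-activating kindlin, was higher with OHT by 1.00 ± 0.09 and 0.95 ± 0.09 (adjusted p = 1.31e-07 in OHT against Ctrl and 2.65e-07 in OHT_Dox against Dox), and FBLIM1, a filamin-binding protein of adhesions, was lower in the same order by -0.60 ± 0.07 and -0.48 ± 0.07. Of 16 further ADAM and hyaluronan genes, 1 was higher and 1 lower in Dox against Ctrl (6.25% and 6.25%), and 0 higher and 1 lower in OHT_Dox against OHT (0% and 6.25%). With OHT, 2 were higher and 2 lower in OHT against Ctrl (12.5% and 12.5%), and 2 higher and 5 lower in OHT_Dox against Dox (12.5% and 31.2%). ADAM19, a membrane protease, was lower by -0.35 ± 0.07 in Dox against Ctrl and -0.50 ± 0.07 in OHT_Dox against OHT, and HYAL3, of the hyaluronidase family, was higher by 0.54 ± 0.10 in OHT against Ctrl and 0.66 ± 0.10 in OHT_Dox against Dox. No gene of these 5 lists had a called interaction.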

How the data were processed

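The deposited table gives CPM per gene for 12 libraries, each summing to 1000000, with no normalization beyond the library total. Per the submitters' processing notes, DRAGEN, FastQC, Bowtie2, STAR, Bowtie and featureCounts were used with builds hg19 and mm10; their roles, the gene annotation and the strand setting are not given in the sources used here, so a gene and its antisense partner may share reads.

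All CPM values were whole reads within 0.01 reads when scaled back. Of the listed identifiers, 28572 matched GENCODE 29, which gave exon lengths, GC content and overlaps for all 90 genes. An exon length is that of all annotated exons of the gene merged. Not used was 1 further gene of the MMP name pattern. Genes at 0.5 CPM or more in at least 3 libraries (18674) were fitted with limma 3.58.1 (R 4.3.3) on log2(CPM + 0.5), with 1 mean per group, all 12 libraries and a mean trend, for 5 contrasts with Benjamini-Hochberg adjustment over all genes. edgeR 4.0.16 and DESeq2 1.42.0 on the recovered reads were alternatives. Within groups, replicate libraries differed by 6.06 to 23.4 in chi-square per degree of freedom, above sampling noise. Same-numbered libraries correlated between -0.17 and 0.33 in their deviations from the group means, over 0.1 in 7 of 18 pairs. No baseline for these values was taken, and 10 of 12 libraries correlated best with their own number, so pairing was not settled. The labels do not say that numbers pair samples, so the main fit had no replicate block, and the block was run as an alternative. Named genes were the single genes, the 12 largest rises and falls per contrast, the 3 most abundant of each class and up to 4 per list. SNAI2, VIM and the other cell-state markers were taken from marker lists. The genes, lists and this rule were chosen with earlier results of these data known. Some genes are not reported here by name.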

Additional observations from a re-analysis of the deposited data

How the results depend on the processing

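No named gene changed its sign among calls under any alternative run. The number of matrix genes called in OHT_Dox against Dox was 19, and it was 30 with a replicate block and the length and GC trend removed and 11 without Dox replicate 1 and OHT_Dox replicate 3 together. That is 21.1%, 33.3% and 12.2%, beside 26%, 29% and 16% of all genes. In Dox against Ctrl 22 matrix genes were called, and 13 without that pair of libraries. That is 24.4% and 14.4%, beside 8.29% and 6.46% of all genes. In OHT_Dox against OHT 15 were called, and 23 with DESeq2, 23 with the replicate block and 24 with the block and the trend removed. That is 16.7%, 25.6%, 25.6% and 26.7%, beside 2.1%, 3.67%, 3.38% and 4.18% of all genes. Leaving out 1 library at a time gave 12 to 17 in OHT against Ctrl, 13 to 22 in OHT_Dox against Dox, 6 to 25 in Dox against Ctrl, 8 to 19 in OHT_Dox against OHT and 0 to 7 in the interaction. In the same order, the share called over all genes ran from 15.1% to 23%, 19% to 27.5%, 1.05% to 17%, 1.05% to 2.69% and 0% to 5.57%. With the replicate block alone, the count of matrix genes was 18 in OHT against Ctrl, 28 in OHT_Dox against Dox, 26 in Dox against Ctrl and 0 in the interaction, and over all genes 4528, 5422, 2525 and 0, beside 3998, 4862, 1548 and 0 without the block. The libraries share only a number, although 10 of 12 correlated best with libraries of their own number. The cause of these differences was not tested. Genes at a few CPM, such as MMP9, HAS2 and ITGB8, rest on fewer reads, and COL1A2, COL10A1 and ITGB6 lie near the threshold.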
